A study of Homo sapiens with 6 samples.

Results

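The 10 genes described here encode the cyclins and kinases that take a cell through G1, the retinoblastoma protein that they act on, and MYC: CCND1, CCND2, CCND3, CCNE1, CCNE2, CDK2, CDK4, CDK6, RB1 and MYC. They were chosen by name among the protein-coding rows of the deposited expression table, which lists 58735 genes. Expression was measured by RNA-seq in NCI-N87, an established gastric carcinoma cell line. The groups were shNC, cells infected with a control lentivirus, and shScamp1, cells infected with a lentivirus that carries a short hairpin RNA against SCAMP1, with 3 libraries each. The study's design text calls these groups shCtrl and shS1#1, and its methods give the empty vector pSIH-H1-puro as the control. Both groups were exposed to virus and polybrene for 24 h, were selected with puromycin at 2 μg/ml as stable populations, and were harvested at about 80% confluence. A single hairpin was sequenced, and the labels do not say whether the replicates of a group came from separate infections, so that the p-values measure the spread between these samples, which may be technical.

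A cell commits to division late in G1. D-type cyclins bind CDK4 and CDK6 in response to growth signals, and these complexes phosphorylate RB1, which otherwise holds the E2F transcription factors in check. Cyclin E with CDK2 completes this phosphorylation, E2F target genes for DNA replication are then transcribed, and MYC, a transcription factor at the end of many growth factor pathways, promotes the same step and drives ribosome production. Cyclin D1 and cyclin E1 are often amplified in gastric cancer. These proteins are also controlled through their turnover, phosphorylation and binding partners, none of which RNA-seq measures.

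The values are FPKM, the number of fragments on a gene scaled to its length and to the library, as the authors deposited them. The libraries held between 14311769 and 15988700 reads on genes. SCAMP1, the targeted gene, was at 11.5 to 12.6 FPKM in shNC and 1.37 to 1.99 FPKM in shScamp1 libraries. The label of stomach was checked against markers. The epithelial genes EPCAM, CDH1, KRT8, KRT18 and KRT19 and the receptor gene ERBB2 averaged 55.1 FPKM or more in shNC libraries, whereas the gastric genes CLDN18, TFF1, TFF2 and GKN1 had 0 to 2 reads per library. The list also held MUC5AC, MUC6, CDX2 and VIL1, some of which passed the expression filter. The levels of these are not given here, so the check of the stomach label is partial. Of these 14 epithelial and gastric markers 8 were tested. With all libraries 4 were called higher (KRT8, KRT18, KRT19 and CDH1) and VIL1 lower, against 8.82% and 5.17% of all genes tested. Without shScamp1 replicate 2, 4 were called higher and 2 lower, against 14.9% and 13.4%. The summed level of the 14 markers was 5449 to 5730 FPKM in shNC and 9077 to 10032 FPKM in shScamp1 libraries. The part of these markers in the results was not tested. Of 14 markers of blood, endothelial, stromal and muscle cells, 2 passed the expression filter, 3 had 0 reads in every library, and their summed level was 3.08 to 3.42 FPKM in shNC and 2.73 to 4.20 FPKM in shScamp1 libraries. One library stood apart from the rest. In shScamp1 replicate 2, mitochondrial genes took 9.21% of the reads, against 6.09% to 6.78% in the other 5 libraries, and its counts differed from those of the other shScamp1 libraries with a chi-square of 34.5 and 44.1 per gene, against 1.97 to 3.10 for all other pairs of replicates. Differences of the tested G1 genes, and the counts over the pathway lists, are therefore given both with all 6 libraries and without shScamp1 replicate 2.

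In shNC cells the levels spanned several orders of magnitude. MYC was the highest (124 FPKM), followed by CCND1 (69.4), CDK4 (31.3), CDK2 (15.0), CCND3 (11.1), RB1 (10.4), CDK6 (6.21), CCNE1 (5.70), CCNE2 (1.86) and CCND2 (0.0176). The ranges of the 3 libraries overlapped between CCND3 and RB1 and between CDK6 and CCNE1, so that these neighbours did not differ beyond their spread, and they were apart for every other pair of neighbours. MYC and CCND1 stood at the 98.1 and 96.1 percentiles of the protein-coding genes tested. In shScamp1 cells the ranges of MYC (71.2 to 101 FPKM) and CCND1 (76.2 to 112 FPKM) overlapped, through replicate 2 only. MYC was at 71.2 and CCND1 at 112 FPKM in that library. In replicates 1 and 3 MYC, at 101 FPKM in each, stayed above CCND1, at 76.2 and 81.7 FPKM. CCND3, at 12.9 to 14.5 FPKM, came above CDK2, at 9.53 to 13.5 FPKM, again with ranges that overlapped through replicate 2.

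**Figure D1:**
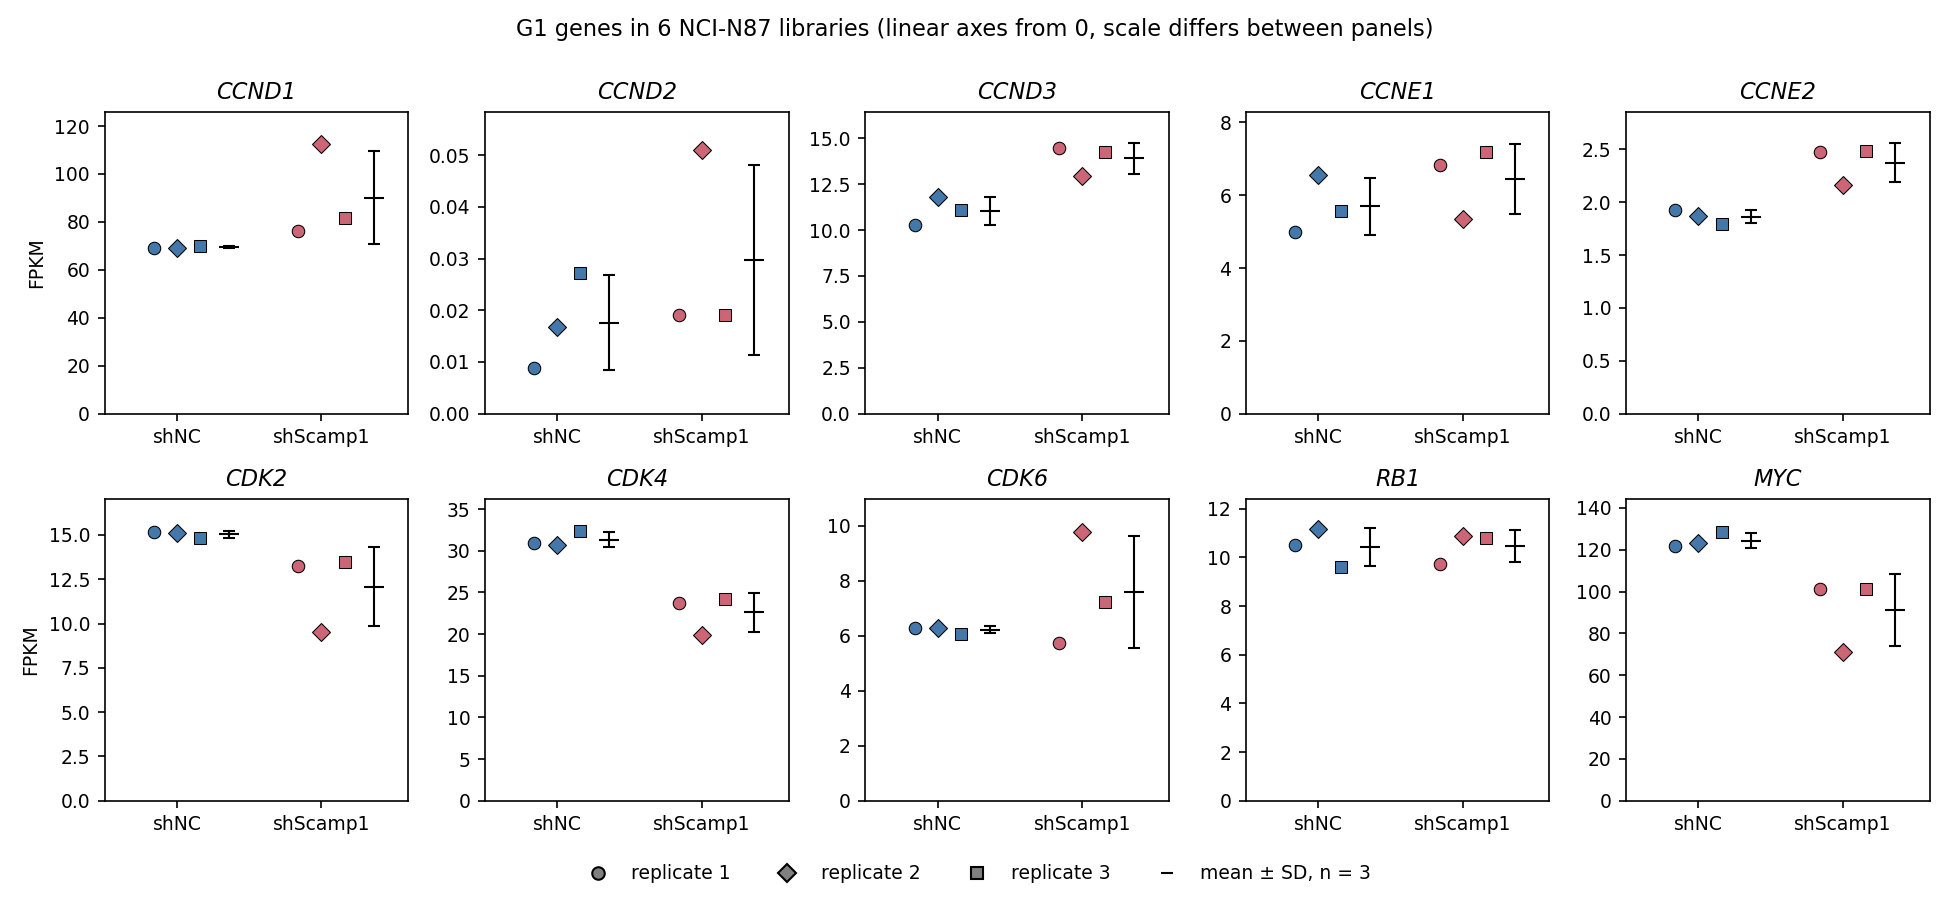
Each panel plots the level of a G1 gene in FPKM (linear axis from 0, scaled per panel) in the 3 shNC and 3 shScamp1 libraries, with marker shapes for the replicate numbers and bars for mean ± SD. CDK4, CDK2 and MYC sit lower in the 3 shScamp1 libraries and CCND1, CCND3 and CCNE2 sit higher, and shScamp1 replicate 2 (diamond) lies apart for CCND1, CDK2, CDK6 and MYC.

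Of the 10 genes, 9 averaged 0.5 FPKM or more over the 6 libraries and were tested with limma on log2(FPKM + 0.1). A gene is named called where its Benjamini-Hochberg adjusted p over all 15556 genes tested was under 0.05, and fold changes are on this log2 scale. With all 6 libraries, CCND3 was called higher and CDK4 was called lower in shScamp1 cells, 1 of 9 genes in each direction. Over all genes tested, 8.82% were called higher and 5.17% lower, so that 63.0% of the called genes were higher, against 47.3% with scaling by total reads. Without shScamp1 replicate 2, CCND1, CCND3 and CCNE2 were called higher and CDK4, CDK2 and MYC lower, 3 of 9 in each direction, against 14.9% higher and 13.4% lower of all 15458 genes tested in that fit. The same 6 were the genes whose 3 shScamp1 values did not overlap with the 3 shNC values, and 41.4% of all genes tested did not overlap. An exact two-sided permutation test of 3 libraries against 3 cannot go below p = 0.1, which these 6 genes reached. None of the 9 genes passed an absolute log2 fold change of 1 together with the adjusted p, by limma or by voom, a criterion met by 3.16% of all genes tested. At an unadjusted p under 0.05, 4 of the 9 genes differed by limma, and the share of all genes at that threshold was not counted. RNA from a culture does not separate less transcript per cell from fewer cells in a phase of the cycle that carries it; for all genes below these cannot be told apart.

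**Figure D2:**
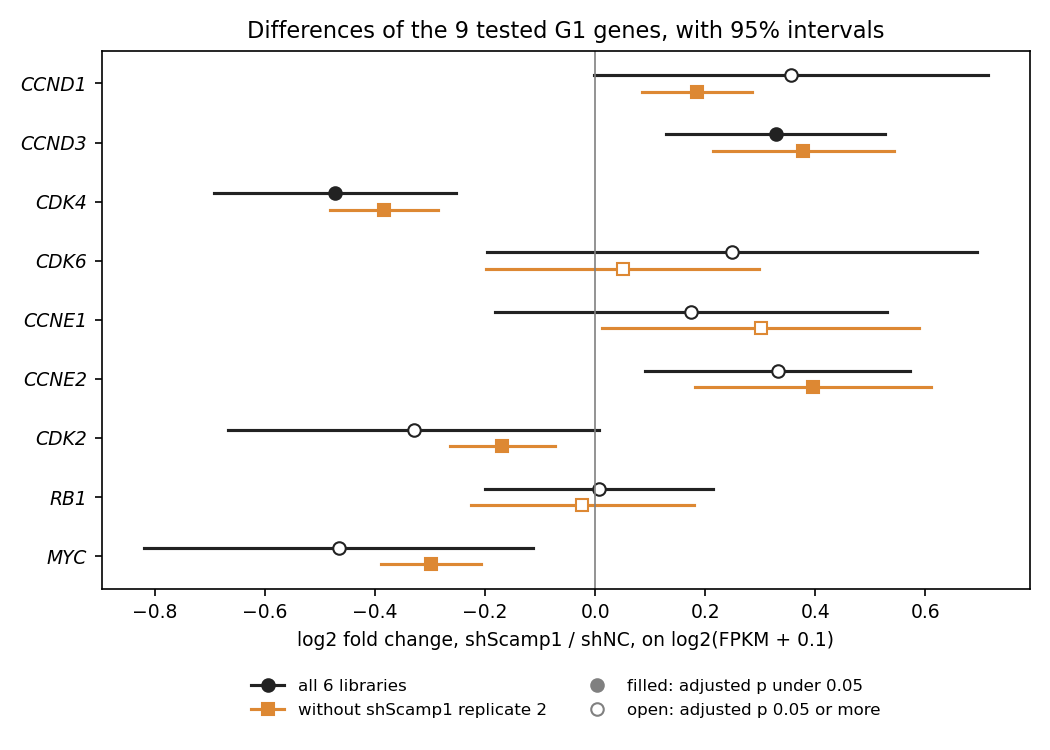
The horizontal axis is the log2 fold change of shScamp1 over shNC on log2(FPKM + 0.1), with 95% intervals from limma, for the 9 tested G1 genes with all 6 libraries (circles) and without shScamp1 replicate 2 (squares), and filled symbols mark an adjusted p under 0.05. CCND3 (0.33) and CDK4 (-0.47) are filled in both fits, and 4 further genes are filled without that library, whose intervals are narrower.

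The D-type cyclins CCND1, CCND2 and CCND3 encode the regulatory subunits that activate CDK4 and CDK6. CCND1 lies on chromosome 11 from 69641087 to 69654474 on the forward strand (coordinates of the deposited table, hg38, equal to GENCODE 29). It was at 69.2, 69.1 and 69.8 FPKM in shNC libraries and at 76.2, 112 and 81.7 FPKM in shScamp1 libraries. The shNC values lay within 1 FPKM of each other, all shScamp1 values lay above them, and replicate 2 was far above the other 2. The mean went from 69.4 ± 0.369 to 90.1 ± 19.5 FPKM (SD, n = 3), and the log2 fold change of 0.36, with a standard error (SE) of 0.15, was not called (adjusted p = 0.165). Without shScamp1 replicate 2 the estimate was smaller, at 0.19, and was called (SE 0.04, adjusted p = 0.0213; range over all 16 alternatives 0.0213 to 0.327).

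CCND3, on chromosome 6 from 41934933 to 42050357 on the reverse strand, was at 10.3, 11.8 and 11.1 FPKM in shNC and at 14.5, 12.9 and 14.3 FPKM in shScamp1 libraries. All shScamp1 values lay above all shNC values, with replicate 2 the closest to them. It rose from 11.1 ± 0.766 to 13.9 ± 0.837 FPKM (SD, n = 3), by 25.7%, or 0.33 in log2 (SE 0.08, 95% interval 0.13 to 0.53, adjusted p = 0.0479). The estimate was 0.38 in log2 without shScamp1 replicate 2 (adjusted p = 0.0108). The call was close to the threshold. It was lost in the fits without any single shNC library (adjusted p from 0.0999 to 0.170), without shScamp1 replicate 1 (0.101) and without shScamp1 replicate 3 (0.143). Calls over all genes also fell in these fits, from 1372 higher and 805 lower with all libraries. They fell to 651 to 674 higher and 166 to 185 lower without 1 shNC library. The log2 fold change of CCND3 stayed between 0.25 and 0.38 over the 16 alternatives. CCND2, on chromosome 12 from 4273772 to 4305350, had 1 to 5 reads per library, at 0.00881 to 0.0271 FPKM in shNC and 0.0191 to 0.0510 FPKM in shScamp1 libraries, and was not tested. The transcript was nearly undetected in all 6 libraries.

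CDK4 and CDK6 are the catalytic partners of the D-type cyclins. CDK4 lies on chromosome 12 from 57747727 to 57756013 on the reverse strand. Its level was 30.9, 30.7 and 32.3 FPKM in shNC and 23.8, 19.9 and 24.2 FPKM in shScamp1 libraries, with a wide gap between the groups. CDK4 fell by 27.8%, from 31.3 ± 0.895 to 22.6 ± 2.36 FPKM (SD, n = 3), or -0.47 in log2 (SE 0.09, 95% interval -0.69 to -0.25, adjusted p = 0.0207). Without shScamp1 replicate 2, the lowest of the libraries, the difference was -0.38 in log2 (SE 0.04, adjusted p = 0.00190). The adjusted p was 0.0850 to 0.0943 in the 3 fits that each left out 1 shNC library, where calls over all genes were also fewer. The log2 fold change stayed between -0.55 and -0.38 over the 16 alternatives. CDK4 shares 1369 of its 3168 exonic bases with TSPAN31 on the opposite strand, and the sources do not say that counting used strand, so reads there cannot be told apart. TSPAN31 was at 4.20 ± 0.0606 FPKM in shNC and 4.08 ± 0.321 FPKM in shScamp1 cells (SD, n = 3; log2 fold change -0.04, adjusted p = 0.757).

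CDK6, on chromosome 7 from 92604921 to 92836594 on the reverse strand, was at 6.30, 6.27 and 6.08 FPKM in shNC libraries, a narrow range. The shScamp1 libraries were at 5.75, 9.78 and 7.21 FPKM, below, far above and above that range. The log2 fold change of 0.25 (95% interval -0.20 to 0.69, adjusted p = 0.404) was not called, and without shScamp1 replicate 2 it was 0.05 (95% interval -0.20 to 0.30, adjusted p = 0.746). The promoters of these 2 kinases are shown because their transcripts take unequal shares and because CDK4 was the member called lower. The windows run from 250 bases before to 50 bases after a RefSeq start (GRCh38.p14), on the reverse strand at chr12:57752261-57752560 for CDK4 and chr7:92836524-92836823 for CDK6, and capitals mark the E-box CACGTG, the palindromic hexamer that MYC with MAX, and other factors of that class, can bind.
CDK4: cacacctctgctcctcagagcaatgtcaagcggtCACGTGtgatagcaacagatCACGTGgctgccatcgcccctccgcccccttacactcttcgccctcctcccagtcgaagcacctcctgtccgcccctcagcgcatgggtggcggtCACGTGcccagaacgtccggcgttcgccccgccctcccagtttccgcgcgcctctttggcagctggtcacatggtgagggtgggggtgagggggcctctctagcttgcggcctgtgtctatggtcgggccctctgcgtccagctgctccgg
CDK6: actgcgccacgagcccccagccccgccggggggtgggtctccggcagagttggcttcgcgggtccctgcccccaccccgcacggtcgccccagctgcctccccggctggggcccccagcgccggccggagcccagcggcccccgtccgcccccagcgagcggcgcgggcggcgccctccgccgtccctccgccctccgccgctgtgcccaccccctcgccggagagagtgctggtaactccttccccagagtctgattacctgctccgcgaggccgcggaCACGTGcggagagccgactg
The CDK4 window holds the hexamer 3 times and this CDK6 window once, while a second RefSeq start of CDK6 holds 0. Among all 35116 windows of the table, 7.26% hold it at least once and 33 windows (0.0940%) hold it at least 3 times. The windows of CCND3 (3 starts), RB1 (1 start) and CCNE1 (1 start) held 0. The RB1 window, at chr13:48476200-48476499, lies inside the gene, which begins at 48303726 on the forward strand. The CDK4 window and the 3 CCND3 windows also lie inside the deposited coordinates of their genes. Those genes begin on the reverse strand at 57756013 (CDK4) and 42050357 (CCND3). The first bases of RB1, CDK4 and CCND3 in these coordinates, and those before them, were therefore not scanned. The table matched 5 of the 10 genes; CCND1, CCND2, CCNE2, CDK2 and MYC were the others. A match describes letters and no binding was measured.

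Summed over the family, D-type cyclin transcripts were at 79.5, 80.9 and 80.9 FPKM in shNC and at 90.7, 125 and 96.0 FPKM in shScamp1 libraries, while CDK4 and CDK6 together were at 37.2, 37.0 and 38.4 FPKM in shNC and at 29.5, 29.7 and 31.4 FPKM in shScamp1 libraries. The groups did not overlap in either sum, although of the genes summed only CCND3 and CDK4 were called with all libraries. Without shScamp1 replicate 2 the mean of the shScamp1 libraries was 93.4 FPKM for the cyclins and 30.4 FPKM for the kinases. The ratio of the cyclin sum to the kinase sum was 2.14 ± 0.0408 in shNC and 3.45 ± 0.669 in shScamp1 cells (SD, n = 3; exact permutation test, p = 0.1), and 3.07 on average without shScamp1 replicate 2. CCND1 made up 86.2% ± 0.837 of the D-type cyclin sum in shNC and 86.3% ± 2.98 in shScamp1 cells (SD, n = 3), with overlapping ranges, and 84.6% without shScamp1 replicate 2. CDK4 made up 83.4% ± 0.651 of the kinase sum in shNC and 74.9% ± 6.99 in shScamp1 cells (SD, n = 3), and its 3 shScamp1 values of 80.5%, 67.1% and 77.0% all lay below the lowest shNC value of 83.1% (exact permutation test, p = 0.1). The difference was -8.56 percentage points with all libraries and -4.65 without shScamp1 replicate 2.

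**Figure D3:**
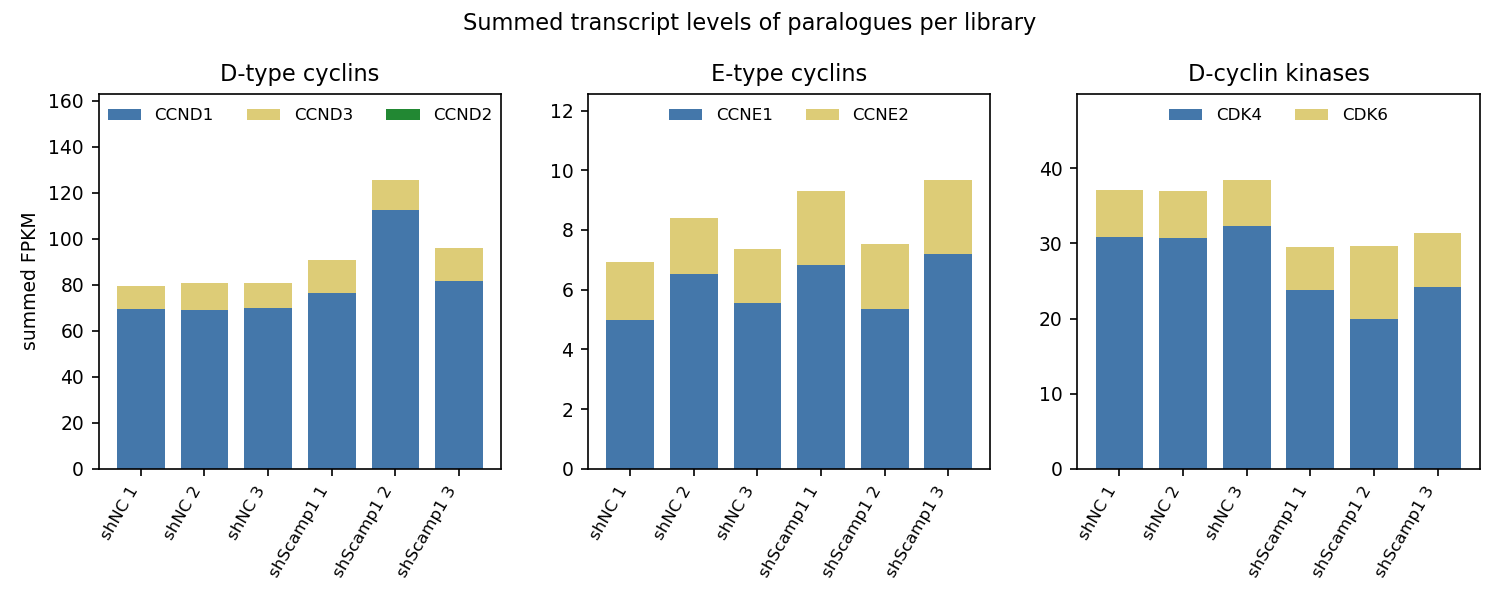
Stacked bars give the summed FPKM (linear axes from 0) of the D-type cyclins, the E-type cyclins and CDK4 with CDK6 in each of the 6 libraries. The D-type sum is higher in the 3 shScamp1 libraries (90.7 to 125 FPKM) than in shNC libraries (79.5 to 80.9 FPKM), the kinase sum is lower, and the E-type sums overlap between the groups.

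The E-type cyclins CCNE1 and CCNE2 activate CDK2 at the end of G1. CCNE1, on chromosome 19 from 29811898 to 29824308, was at 5.00, 6.54 and 5.56 FPKM in shNC and at 6.82, 5.36 and 7.18 FPKM in shScamp1 libraries. The groups overlapped through shScamp1 replicate 2, and the log2 fold change of 0.17 (95% interval -0.18 to 0.53, adjusted p = 0.465) was not called with it or without it (0.30, adjusted p = 0.112). CCNE2, on chromosome 8 from 94879770 to 94896678, was at 1.92, 1.87 and 1.80 FPKM in shNC and at 2.48, 2.16 and 2.49 FPKM in shScamp1 libraries, from 122 to 160 reads. All shScamp1 values were above all shNC values. Its estimate was 0.33 in log2 with all libraries (SE 0.10, adjusted p = 0.0772) and 0.40 without shScamp1 replicate 2 (SE 0.09, adjusted p = 0.0216), and its adjusted p ranged from 0.0216 to 0.221 over 16 alternatives. CCNE2 shares 1629 of 4397 exonic bases with INTS8 on the opposite strand, which was at 5.72 ± 0.322 FPKM in shNC and 5.997 ± 0.333 FPKM in shScamp1 cells (SD, n = 3), a higher level than CCNE2, with a log2 fold change of 0.07 (adjusted p = 0.602). CCNE1 supplied 75.2% ± 2.80 of the E-type sum in shNC and 73.0% ± 1.55 in shScamp1 cells (SD, n = 3), with overlapping ranges, and 73.8% without shScamp1 replicate 2.

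CDK2, the kinase that cyclin E and later cyclin A activate, lies on chromosome 12 from 55966769 to 55972784. It was at 15.2, 15.1 and 14.8 FPKM in shNC and at 13.3, 9.53 and 13.5 FPKM in shScamp1 libraries, all of them lower, with replicate 2 the lowest by far. The mean was 15.0 ± 0.184 FPKM in shNC and 12.1 ± 2.22 FPKM in shScamp1 cells (SD, n = 3). The difference of -0.33 in log2 was not called (SE 0.14, adjusted p = 0.170), and without shScamp1 replicate 2 it was -0.17 and was called (SE 0.04, adjusted p = 0.0252; range over 16 alternatives 0.0252 to 0.338). Like CDK4, CDK2 was lower in each shScamp1 library than in any shNC library, and 41.4% of all genes tested did not overlap between the groups.

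RB1, the pocket protein that restrains E2F, spans chromosome 13 from 48303726 to 48599436. It was at 10.5, 11.2 and 9.60 FPKM in shNC and at 9.72, 10.9 and 10.8 FPKM in shScamp1 libraries, and the groups overlapped fully. The log2 fold change was 0.01 with a 95% interval of -0.20 to 0.21 (adjusted p = 0.970), so that changes of RB1 transcript beyond that interval were not seen. It was -0.02 without shScamp1 replicate 2 (95% interval -0.23 to 0.18, adjusted p = 0.860), and its sign changed with the processing.

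MYC lies on chromosome 8 from 127735434 to 127741434. Between 2927 and 6153 reads covered it per library. It was at 122, 123 and 128 FPKM in shNC and at 101, 71.2 and 101 FPKM in shScamp1 libraries. All shScamp1 libraries lay below all shNC libraries, and replicate 2 lay well below the other 2, which nearly coincided. The mean was 124 ± 3.65 FPKM in shNC and 91.1 ± 17.2 FPKM in shScamp1 cells (SD, n = 3), a difference of -26.7%. The log2 fold change of -0.47 (SE 0.15, 95% interval -0.82 to -0.11) had an adjusted p of 0.0861 and was not called. Without shScamp1 replicate 2 the log2 fold change was -0.30 (SE 0.04, 95% interval -0.39 to -0.21, adjusted p = 0.00334), and it was also called by voom on recovered reads (adjusted p = 0.0481); over 16 alternatives the adjusted p ran from 0.00334 to 0.232 and the log2 fold change from -0.55 to -0.30. The estimate was thus larger, and its error larger still, with that library than without it.

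The departure of shScamp1 replicate 2 was not in 1 direction. On the log2 scale it differed from the mean of the other shScamp1 libraries by 0.60 for CDK6 and 0.51 for CCND1, by -0.50 for MYC, -0.48 for CDK2, -0.38 for CCNE1 and -0.27 for CDK4, and by 0.09 for RB1. For CCND1, CDK2, CDK4 and MYC it was farther from the shNC libraries than the other replicates were, and for CCND3, CCNE1 and CCNE2 nearer to them. The part of its mitochondrial share in these values was not tested.

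The other genes of the pathway were described from lists written from textbook membership. These lists were chosen with earlier results of these data known, so their counts and medians are descriptions and not independent tests. Among the RB family, the E2F factors with their partners and the DREAM complex, 18 of 18 genes were tested. Of these 0 were called higher and 2 lower (11.1% of the list, against 8.82% higher and 5.17% lower of all genes). The median log2 fold change was -0.17 beside -0.02 over all genes tested. An unadjusted p under 0.05 by limma was found for 6, and the share of all genes at that threshold was not counted, so that this count is not a result about the list. The called genes were MYBL2, a transcription factor of S phase and mitosis (log2 fold change -0.35, adjusted p = 0.0322), and E2F7, an E2F repressor (-0.26, adjusted p = 0.0481). Both calls were lost without any single library other than shScamp1 replicate 2 (adjusted p 0.0749 to 0.130 for MYBL2 and 0.0999 to 0.191 for E2F7). E2F1, picked out after its values were seen, was at 32.8 to 36.3 FPKM in shNC and 26.3 to 33.8 FPKM in shScamp1 libraries, with overlap (adjusted p = 0.306). Leaving out shScamp1 replicate 2 gave 5 called of the 18, all lower, against 13.4% of all genes called lower in that fit, with MYBL2 at -0.41 (adjusted p = 0.00113) and E2F7 at -0.28 (adjusted p = 0.0136).

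The list of E2F target genes for replication held 31 tested genes of 32. Of these 8 were called, all lower (25.8% of the list, against the 5.17% of all genes called lower). An estimate below 0 was found for 26, beside 8151 of all 15556 genes tested, and the median log2 fold change was -0.27. ASF1B, a histone chaperone, was at 24.5, 24.5 and 26.7 FPKM in shNC and at 16.2, 12.0 and 15.5 FPKM in shScamp1 libraries, and fell by 42.3%, or -0.80 in log2 (SE 0.12, adjusted p = 0.00997; 0.0532 without shNC replicate 3). GINS1, a subunit of the replicative helicase, was at 10.7, 10.2 and 10.4 FPKM in shNC and at 6.70, 6.09 and 7.41 FPKM in shScamp1 libraries (log2 fold change -0.63, adjusted p = 0.00729). Neither gene overlapped between the groups, and without shScamp1 replicate 2 ASF1B was at -0.67 (adjusted p = 0.000869) and GINS1 at -0.56 (adjusted p = 0.00218). The other called genes, which were picked out after their values were seen, were the helicase subunits MCM3 (-0.47), MCM6 (-0.39) and MCM7 (-0.37), the uracil glycosylase UNG (-0.37), the chromatin assembly subunit CHAF1A (-0.30) and thymidine kinase TK1 (-0.27). Without shScamp1 replicate 2, 19 were called lower and 1 higher, with a median of -0.28, in a fit that called 13.4% of all genes lower and 14.9% higher; the higher one was PCNA, the polymerase clamp, at 0.38. In the fits that each left out 1 shNC library, 2 or 3 of the genes were called lower, and 4 without shScamp1 replicate 3. Over all genes, 166 to 185 were called lower without 1 shNC library and 314 without shScamp1 replicate 3, against 805 with all libraries. Of the later cyclins and CDK1, 6 of 7 were tested and 0 were called by limma or voom, 0 had an unadjusted p under 0.05, and CCNA2 was at 45.0 to 46.4 FPKM in shNC and at 40.2 to 45.8 FPKM in shScamp1 libraries. Once shScamp1 replicate 2 was left out, 2 of the 6 were called lower, CCNA2 (-0.18, adjusted p = 0.0133) and CDK1 (-0.17, adjusted p = 0.0448), against 13.4% of all genes.

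The CDK inhibitors were all tested (7 of 7), with 1 called higher and 0 lower against 8.82% and 5.17% of all genes. With shScamp1 replicate 2 left out, 4 of the 7 were called higher (CDKN2A, CDKN2B, CDKN1B and CDKN2D), against 14.9% of all genes. Without shScamp1 replicate 1, 1 was called higher and 1 lower, where 1143 of all 15584 genes tested were called higher and 670 lower. CDKN2B, which encodes p15, an inhibitor of CDK4 and CDK6 induced by TGF-beta, was called higher. It was at 11.2, 11.05 and 10.5 FPKM in shNC and at 20.7, 17.2 and 22.6 FPKM in shScamp1 libraries, and rose by 84.5%, or 0.87 in log2 (SE 0.11, adjusted p = 0.00511), and 0.98 in log2 without shScamp1 replicate 2 (adjusted p = 0.000285). It was called under all 16 alternatives. CDKN1B, which encodes p27, an inhibitor of cyclin E with CDK2, was at 11.8, 13.5 and 12.0 FPKM in shNC and at 20.6, 14.4 and 19.5 FPKM in shScamp1 libraries. It was not called with all libraries (0.53, adjusted p = 0.0638) and was without shScamp1 replicate 2 (0.69, adjusted p = 0.00190). CDKN1A, the p53 target p21, had a log2 fold change of 0.05 (adjusted p = 0.819). CDKN1A was at 0.14 without that library (adjusted p = 0.313). CDKN1B, CDKN1A, CDKN2A and CDKN2D were picked out after their values were seen.

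Of 17 genes for the turnover of cyclins and MYC, all tested, 1 was called higher and 1 lower, against 8.82% and 5.17% of all genes. The counts were 0 higher and 4 lower without shScamp1 replicate 2, against 14.9% and 13.4% of all genes, and 0 higher and 3 lower with scaling by total reads. SKP2, the F-box protein that marks p27 for degradation, was at 6.69, 6.83 and 7.37 FPKM in shNC and at 4.60, 4.21 and 4.51 FPKM in shScamp1 libraries. It fell by 36.3%, or -0.64 in log2 (SE 0.08, adjusted p = 0.00397), and -0.60 in log2 without shScamp1 replicate 2 (adjusted p = 0.00196). It was called under all 16 alternatives. USP2, a deubiquitinase of cyclin D1, was higher at a low level (0.610 to 1.19 FPKM in the means, log2 fold change 0.88, adjusted p = 0.0494) and lost the call without any single library (adjusted p 0.0722 to 0.131). Among 10 genes for the activation of CDKs, PKMYT1, an inhibitory kinase of CDK1, was called lower (-0.39, adjusted p = 0.0468), a call lost without any single library other than shScamp1 replicate 2 (adjusted p 0.0649 to 0.165; 0.0125 and -0.30 in log2 without that library), against 5.17% of all genes, and the others were not called in either fit.

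In the wider MYC network, a list that holds MAX and is not limited to its partners, 11 of 13 genes were tested. Of these 2 were called higher and 1 lower, against 8.82% and 5.17% of all genes. The counts were also 2 and 1 without shScamp1 replicate 2, against 14.9% and 13.4%. MXD1, a MAX partner that represses MYC sites and accompanies differentiation, was at 2.03, 1.92 and 1.96 FPKM in shNC and at 5.29, 5.19 and 4.97 FPKM in shScamp1 libraries. The replicates of each group lay close together, and the rise was 1.34 in log2 (SE 0.07, adjusted p = 0.000388). MXD4, another repressive partner picked out after its values were seen, was also higher (0.53, adjusted p = 0.0118), but only 1 gene of the network was called higher without shNC replicate 1, shNC replicate 2 or shScamp1 replicate 3, so that its call was lost there. MLXIPL, the glucose-responsive factor also called ChREBP, was at 2.71, 3.19 and 3.02 FPKM in shNC and at 1.17, 0.804 and 1.08 FPKM in shScamp1 libraries. It fell by 65.8%, or -1.47 in log2 (SE 0.16, adjusted p = 0.00281). MXD1 and MLXIPL were called under all 16 alternatives, and without shScamp1 replicate 2 stood at 1.34 (adjusted p = 0.000248) and -1.33 (adjusted p = 0.000876). MAX itself had a log2 fold change of -0.09 (adjusted p = 0.660). The paralogues MYCN (0 to 18 reads) and MYCL (9 to 50 reads) were under the filter.

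Of 32 MYC target genes, mostly of ribosome production, 31 were tested and 5 were called, all lower (16.1% of the list, against 5.17% of all genes). An estimate below 0 was found for 28, beside 8151 of all 15556 genes tested, and the median log2 fold change was -0.24. TERT, the catalytic subunit of telomerase, was at 1.41, 1.56 and 1.65 FPKM in shNC and at 0.699, 0.413 and 0.564 FPKM in shScamp1 libraries (log2 fold change -1.34, SE 0.22, adjusted p = 0.0117), from as few as 26 reads; without any single shNC library the adjusted p was 0.0540 to 0.0661. FBL, the nucleolar methyltransferase fibrillarin, was at 105, 108 and 116 FPKM in shNC and at 79.4, 66.1 and 71.8 FPKM in shScamp1 libraries (-0.60, SE 0.09, adjusted p = 0.00904, and 0.0503 and 0.0509 without shNC replicates 2 and 3). The other 3, picked out after their values were seen like MAX, PCNA, CCNA2 and CDK1 above, were the ribosome factors RRS1 (-0.50) and WDR12 (-0.30) and the spermidine synthase SRM (-0.37). With shScamp1 replicate 2 left out, 17 of the 31 were called, all lower, with a median of -0.17, against 13.4% of all genes called lower in that fit, and TERT was at -1.17 (adjusted p = 0.00600) and FBL at -0.54 (adjusted p = 0.00294). Without any single shNC library, at most 1 was called, and without shScamp1 replicate 1 or replicate 3 it was 3. Over all genes, 166 to 185 were called lower without 1 shNC library, against 805 with all libraries. Without shScamp1 replicates 1 and 3 the all-gene counts were 670 and 314 lower.

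**Figure D4:**
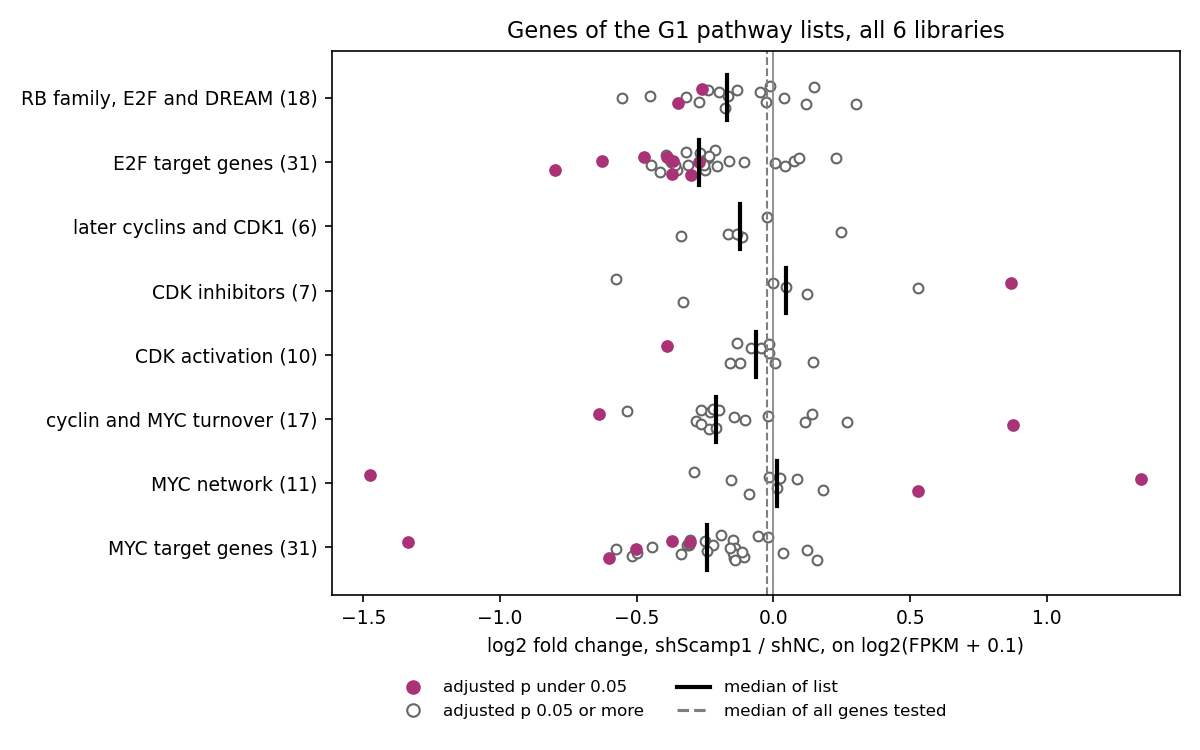
Each point is a tested gene of a pathway list (number tested in parentheses), placed by its log2 fold change of shScamp1 over shNC on log2(FPKM + 0.1) with all 6 libraries, filled where the adjusted p was under 0.05, and black bars are list medians. The lists of E2F targets (median -0.27) and MYC targets (median -0.24) lie mostly to the left of the dashed median of all genes tested (-0.02), while MXD1, CDKN2B and MLXIPL stand far from the rest of their lists.

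CCND1 lies beside FGF3, FGF19 and ANO1 on chromosome 11, and of its 12 listed neighbours 11 were tested, with 2 called higher and 2 lower against 8.82% and 5.17% of all genes, and 3 and 3 without shScamp1 replicate 2 against 14.9% and 13.4%. FGF3 (log2 fold change -1.42, adjusted p = 0.00745) and FGF19 (-1.26, adjusted p = 0.0210; 0.0727 to 0.0959 without any single shNC library) were called lower and ANO1, a chloride channel, higher (1.04, adjusted p = 0.00188), beside 0.36 for CCND1. In the fit that left out shScamp1 replicate 2, FGF3 was at -1.19, FGF19 at -1.16 and ANO1 at 1.03, beside 0.19 for CCND1. With a pseudocount of 1 and all libraries, the FGF19 estimate was -0.69, so that its size depended on the pseudocount.

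The profile of each called member over the 6 libraries was set against 6576 protein-coding genes that averaged 5 FPKM or more, by the root mean square difference of log2 values centred on the shNC mean. Nearest to CCND3 were SRC, a tyrosine kinase (0.0397), and VPS37B, a subunit of ESCRT-I (0.0450). Nearest to CDK4 were RPL14, a ribosomal protein (0.0272), and SCD5, a fatty acid desaturase (0.0369). This describes likeness over 6 libraries and was not tested.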

How the data were processed

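The authors deposited FPKM per gene for 6 libraries, with gene lengths and coordinates. The submitters' processing notes name HISAT2 2.0.5, featureCounts 1.5.0-p3, DESeq2 1.20.0 and hg38; the annotation and strand setting are not given in the sources used here, but all 58735 gene coordinates equalled GENCODE 29. FPKM multiplied by length was a whole multiple of a step (tolerance 0.05 reads) for 100% of values above 0, which gave reads. The steps held a scaling between libraries, so none was added.

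The 15556 genes that averaged 0.5 FPKM or more were fitted in R 4.3.3 with limma 3.58.1 (lmFit, eBayes with a trend) on log2(FPKM + 0.1), with Benjamini-Hochberg adjustment over all of them. Sums and shares were tested by exact permutation in scipy 1.17.1. Members and lists were chosen with earlier results of these data known. Genes named outside the members were the differentially expressed list genes (up to 5), or the 2 called genes with the largest change, others being marked. Alternatives covered pseudocount, filter, scaling, trend, biotype, voom, the replicate block and each library left out. In simulated reads for this comparison (15597 genes), 27 of 40 genes changed by a log2 of 1, 26 of 39 by -1, 12 of 39 by 0.5 and 6 of 39 by -0.5 were called. The simulation gave every gene the same dispersion and had no library like shScamp1 replicate 2. These counts therefore do not measure the power of the comparison in the real libraries.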

Additional observations from a re-analysis of the deposited data

How the results depend on the processing

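CCND3 and CDK4 were called with pseudocounts of 1 and 0.01, a filter of 1 FPKM, quantile normalization, protein-coding rows only and voom. The number of members called higher was 0 without a filter, with scaling by total reads, without the variance trend and with the replicate number as a block, and 2 with protein-coding rows only; the number called lower was 2 with quantile normalization and with voom, and 0 with the replicate block. Leaving out 1 library gave 0 to 3 members called higher and 0 to 3 lower. Over the pathway lists, 4 genes were called higher and 18 lower with all libraries; the number called lower was 11 without a filter, 31 with scaling by total reads, 10 without the trend and 6 with the replicate block, and 4 to 49 (higher: 2 to 7) when each library was left out, with the largest counts without shScamp1 replicate 2. The causes of these shifts were not tested. Deviations from the group means correlated at -0.0351, 0.0325 and 0.0668 for the same replicate numbers, and at -0.0841 to 0.0537 for different numbers. With 3 libraries per group and shScamp1 replicate 2 apart from the rest, these values cannot decide whether the numbers pair the libraries. The block lowered the calls over all genes from 1372 higher and 805 lower to 704 and 254, against 2296 and 2078 without shScamp1 replicate 2. The fits without 1 shNC library called 651 to 674 higher and 166 to 185 lower. Of all called genes 63.0% were higher as deposited and 47.3% with scaling by total reads. RB1, at 0.01 in log2, changed sign, to -0.0682 with scaling by total reads and -1.8e-05 with quantile normalization, and ran from -0.0516 to 0.0582 over the fits that left out a library. The CCND1 share of D-type cyclins differed by 0.0163 percentage points and by -1.68 to 1.14 with a library left out. The sum of CDK4 and CDK6 differed by -7.34 FPKM, and by -9.17 FPKM with scaling by total reads. The other sums and shares kept their direction in every alternative run. CCNE2 rested on 122 to 160 reads per library and CCND2 on 1 to 5, which limits the precision of both.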
